A study of Mus musculus with 12 samples.

Results

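The 36 genes described here encode the proteins of the basement membrane and the receptors that hold cells to it. They were chosen by name and function, with earlier results of these data known, and all 36 were found among the 32761 genes of the count table. The set holds 6 collagen IV chains, 5 laminin alpha, 3 laminin beta and 2 laminin gamma chains and 2 nidogens. It also holds 4 heparan sulfate proteoglycans or their relatives, 3 Fraser complex proteins, 5 integrin ligands or calcium-binding matrix proteins, 5 receptor genes and 1 crosslinking enzyme. RNA was sequenced from the corneal endothelium, the single cell layer at the back of the cornea, of wild-type mice and of mice carrying the Q455K change of Col8a2 on both alleles. Col8a2 encodes a chain of collagen VIII, and the study addresses early and late phases of Fuchs endothelial corneal dystrophy. The 4 groups held 3 libraries each, with wild types and mutants taken early (2 months of age or less) and late (8 months or more). Early libraries were batch 1 and late libraries batch 2, so stage and batch cannot be told apart. The labels call the libraries biological replicates, and since no source used here gives the number of animals in a library or the strain, p-values measure the spread between these libraries.

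Basement membranes are thin sheets of matrix on which cell layers rest. Laminins, trimers of an alpha, a beta and a gamma chain, assemble at the cell surface, where they are bound by integrins and by dystroglycan, and collagen IV forms another network that nidogens and perlecan tie to the laminins. Collagen IV is built from 6 chains in 3 kinds of trimer, and their genes lie as head-to-head pairs (Col4a1 with Col4a2, Col4a3 with Col4a4, Col4a5 with Col4a6). The corneal endothelium secretes Descemet membrane, a thick basement membrane that also contains a lattice of collagen VIII.

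Libraries held between 19722598 counts (early wild-type replicate 2) and 39431676 counts (early mutant replicate 1), at which 3 counts correspond to 0.0773 to 0.132 CPM (counts scaled to library size, with TMM factors). Col8a2 was at 1175 ± 568 CPM (SD, n = 3) in early wild type and 938 ± 122 CPM in early mutants, and at 938 ± 235 and 889 ± 150.1 CPM in the late groups. The mutation changes 1 amino acid, so this level does not check the genotype labels. All 8 corneal endothelial markers examined, among them Slc4a11 and Aqp1, were present in every library, and their summed level was 12213 CPM in late wild-type replicate 1 against 5325 and 4956 CPM in replicates 2 and 3 of that group. The same sum was 7303 to 10285 CPM in early wild types, 8886 to 13931 in early mutants and 9319.8 to 11957 in late mutants. Late wild-type replicates 2 and 3 thus lay below every library of the other groups, and replicate 1 lay within their range. Late wild-type replicate 1 also moved the number of genes past the threshold in the late comparison, which was 983 of the 17965 genes tested with it and 3909 without it, so the members called late without it are given as well.

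Compared per length, in the FPKM that the authors deposited (fragments scaled by gene length and library size), the 36 genes covered a wide range. Npnt, which encodes the integrin alpha 8 beta 1 ligand nephronectin, was the highest, with a mean of 203 FPKM over the 12 libraries. Another 10 genes had means between 12 and 97.4 FPKM, in the order Col4a3, Col4a4, Smoc1, Col4a1, Itgb1, Col4a2, Itga3, Lamb2, Col4a6 and Dag1. The ranges of neighbours in this order overlapped over the 12 libraries. As an example, Col4a4, Smoc1 and Col4a1 spanned 43.7 to 88.1, 38.3 to 77.1 and 26.8 to 65.1 FPKM. A band of 13 genes lay between 1.02 and 9.33 FPKM and included Col4a5, Smoc2, the perlecan gene Hspg2, both nidogens, Lamc1, Lama5 and Lamb1. The remaining 12 had means below 1 FPKM, down to 0.0237 FPKM for Lama3. Col15a1 alone was removed by the filter on low counts, so 35 genes were tested.

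**Figure D1:**
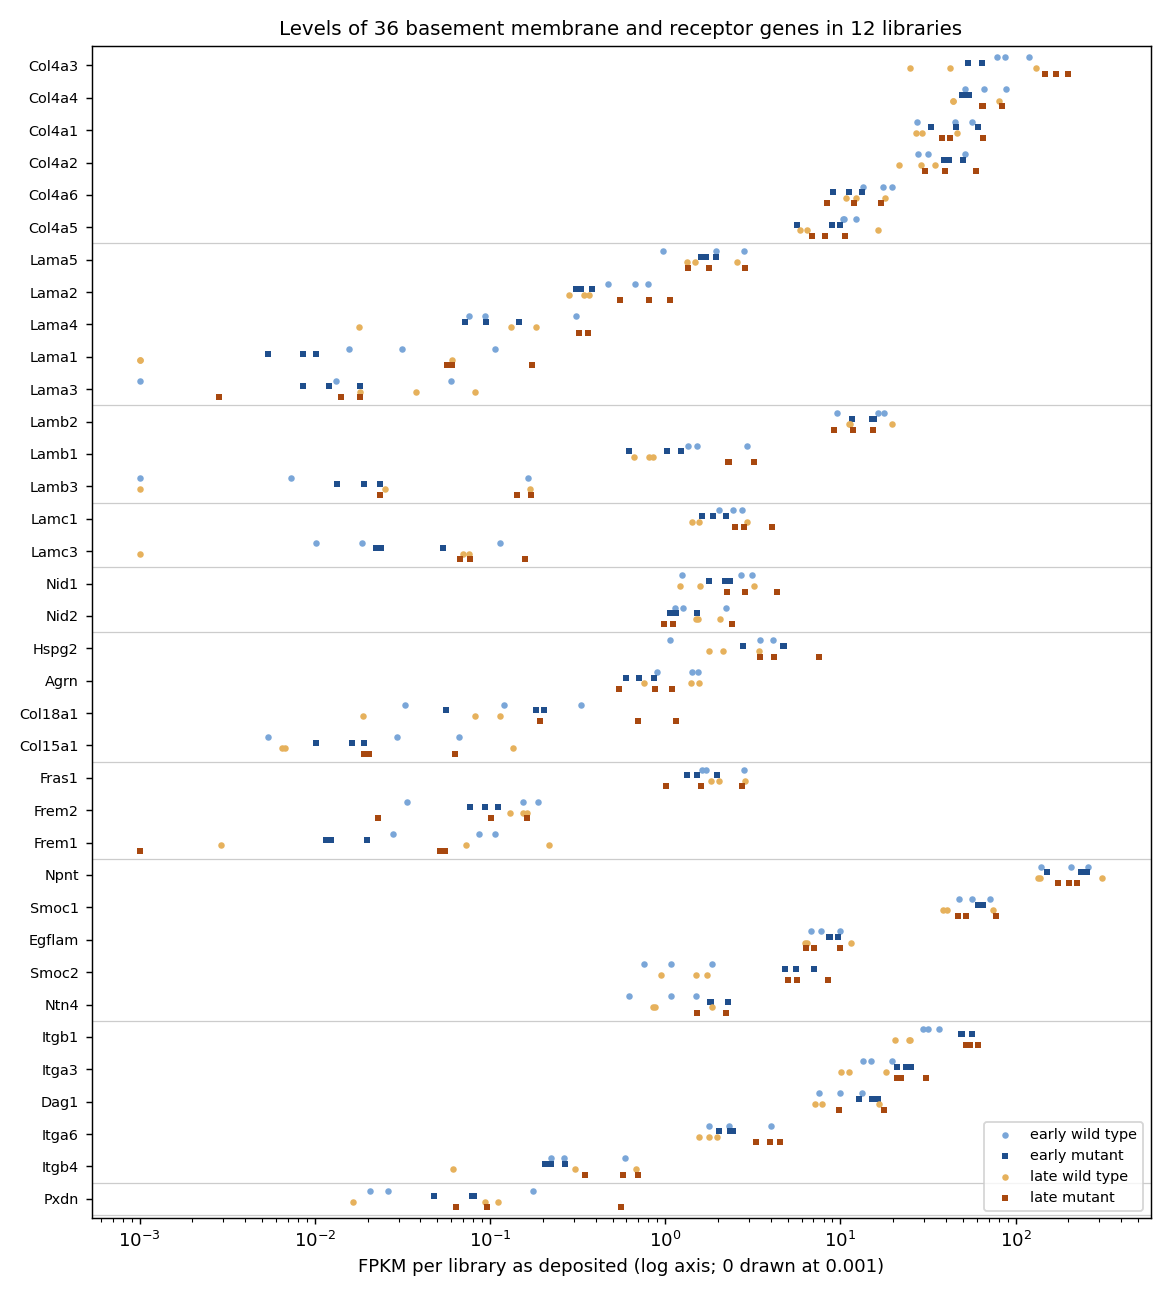
Level of each of the 36 genes in each of the 12 libraries, in FPKM as deposited on a log axis, grouped by the role of the protein, with values of 0 drawn at 0.001. Npnt and Col4a3 lie at the top of the range, and the late mutant values of Lamb1, Itgb1 and Smoc2 lie above every late wild-type value.

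The genotype comparison asks which of these genes differ between mutant and wild-type endothelium at each stage. In early mutants 1 gene rose, Smoc2, which encodes a secreted calcium-binding matrix protein. In late mutants 4 rose, namely Smoc2, the laminin chain Lamb1, the integrin chain Itgb1 and Col18a1, the collagen whose end fragment is endostatin. With both stages averaged, Smoc2, Itgb1 and the integrin chain Itga3 rose, and no gene of the set fell in any of these comparisons. The test was edgeR's quasi-likelihood F test, with p-values adjusted by Benjamini-Hochberg over all 17965 genes tested and a threshold of 0.05. Across all tested genes, 0.557% were called higher early, 2.77% late and 4.04% with the stages averaged, and 0.0334%, 2.71% and 2.81% were called lower. For the lower direction, in which this edgeR fit called 0 members, DESeq2's Wald test called 0 early and late and 1 with the stages averaged (Agrn), and limma-voom called 0. Over all alternatives run, Agrn was called lower with the stages averaged in 5 of 19. Of the other fits, limma-voom called Itgb1 besides Smoc2 early, 2 members where 0.707% of all genes were called higher. DESeq2 called 8 members late, where 6.59% of all genes were called higher, and with the stages averaged 5 higher, where 6.38% were. Without a filter on low counts, 5 were called with the stages averaged, against 3.35% of all genes. At an unadjusted p below 0.05, 8 of the 35 tested members differed early, 10 late and 9 with the stages averaged, in either direction, against 8.77%, 28.1% and 24.3% of all genes. The median log2 fold change of the tested members was -0.16 early, with all genes at -0.11, and 0.50 late, with all genes at 0.001. Above 0 were 15 of 35 early and 24 of 35 late, against 43.1% and 50.1% of all genes. Without late wild-type replicate 1 the late count was 12, with Col4a3, Lama1, Lama2, Lamc1, Nid1, Hspg2, Itga3 and Itga6 added to the 4, and without replicate 3 of the same group it was 1 (Smoc2), against 11% and 1.05% of all genes called higher. Without late wild-type replicate 1 and early wild-type replicate 2, which had the fewest counts, it was also 12, against 12.6% of all genes. With the stages averaged, 4 members were called higher without early wild-type replicate 2 (4.22% of all genes), 6 without late wild-type replicate 1 (9.93%), 4 without late wild-type replicate 2 (2.86%) and 7 without the former pair (10.9%).

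**Figure D2:**
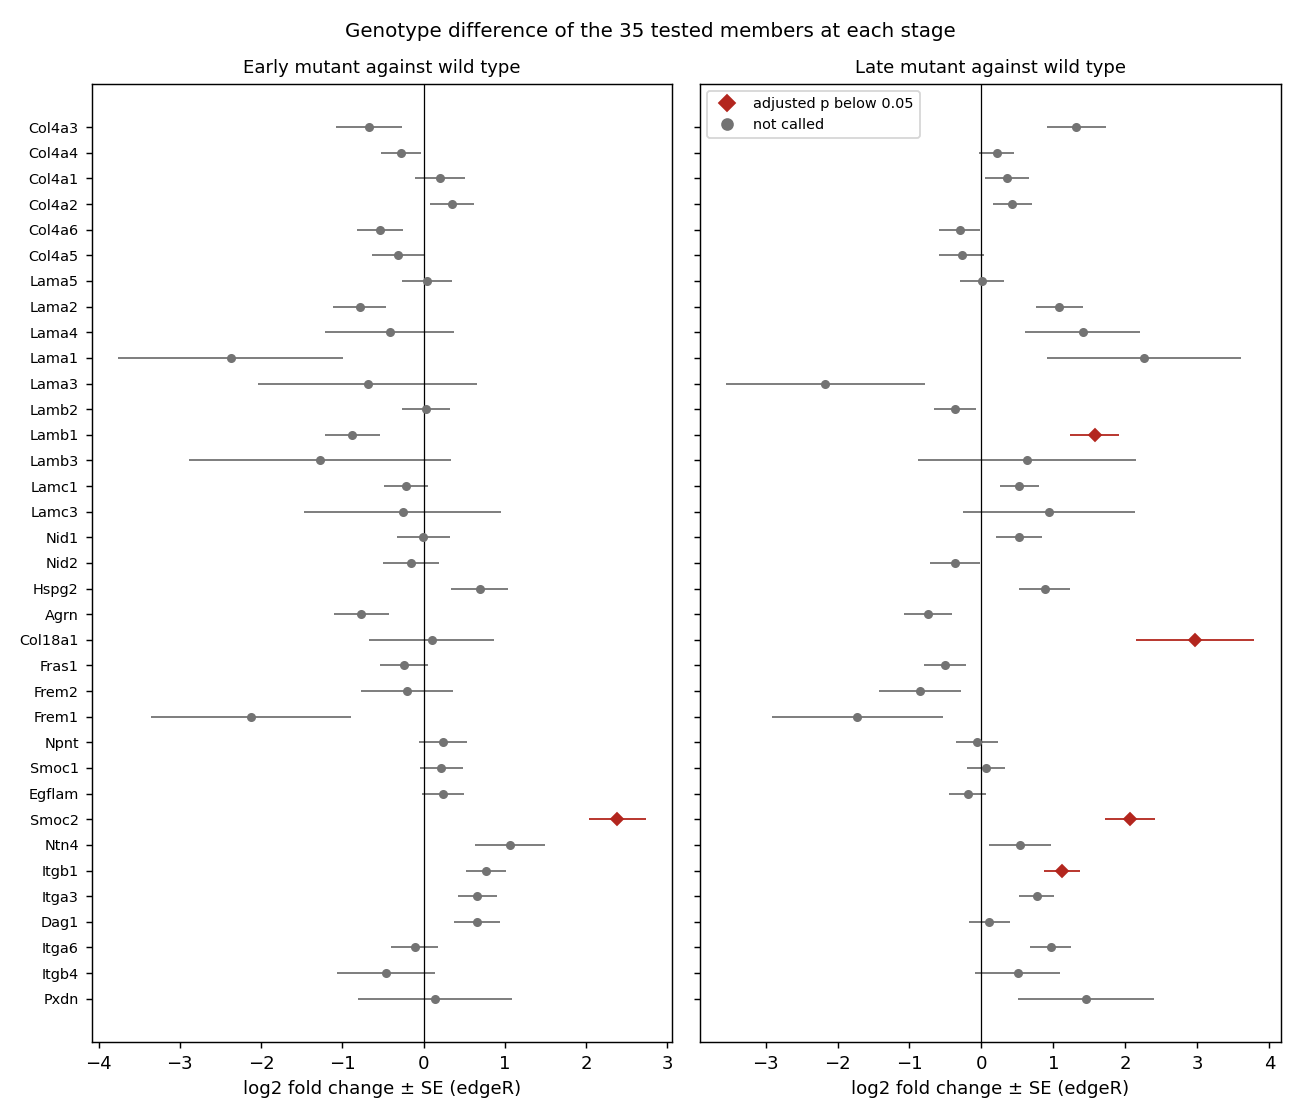
Log2 fold change of mutant over wild type with its standard error (edgeR) for the 35 tested genes, early on the left and late on the right, with diamonds for adjusted p below 0.05. Smoc2 lies to the right in both panels, at 2.39 and 2.06, whereas Lamb1 lies at -0.87 early and 1.58 late.

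Complete separation of the 3 mutant from the 3 wild-type libraries is a looser description than the test. It was judged in CPM with TMM factors. Early, 5 tested members were higher in every mutant library (Smoc2, Itga3, Itgb1, Dag1 and Ntn4) and 4 were lower (Col4a3, Lama1, Lama2 and Frem1), where 10.1% and 11.8% of all genes were separated in these directions. Late, 10 were higher (Col4a3, Lama2, Lama4, Lamb1, Hspg2, Col18a1, Smoc2, Itga3, Itga6 and Itgb1) and 2 lower (Lama3 and Frem2), where 14.9% and 10.9% of all genes were. Col4a3 and Lama2 are in the lower list early and in the higher list late. Separation could differ between the units. In FPKM, unlike CPM, Col4a5, Col4a6, Lamb1 and Agrn, for example, were lower in every early mutant library than in the early wild types. Conversely, Dag1 early and Frem2 late, apart in CPM, overlapped between the genotypes in FPKM.

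Among the collagen IV chains, transcripts of the alpha 3 and alpha 4 chains were the most abundant in mean FPKM over the 12 libraries. Single libraries could differ. Col4a1 took 26.2% of the summed FPKM of the chains and Col4a3 23.0% in early mutant replicate 2, and 20.3% and 17.4% in late wild-type replicate 3. Col4a3 stood at 119, 87.2 and 78.5 FPKM in the early wild-type libraries and 53.1, 53.5 and 64.7 FPKM in the early mutants. In the late stage it stood at 131, 41.9 and 24.9 FPKM in wild type and 199, 169 and 147 FPKM in mutants. Every late mutant was therefore above every late wild-type library, and among the latter replicate 1 stood well above the other two. On the count scale the late difference was 1.32 ± 0.41 (log2 fold change ± SE) and missed the threshold (edgeR, adjusted p = 0.0631). It was 2.24 without late wild-type replicate 1 (adjusted p = 0.0023), 1.14 without replicate 2 (adjusted p = 0.191) and 0.95 without replicate 3 (adjusted p = 0.182).

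Col4a4, the partner of Col4a3, was at 51.1, 65.9 and 88.1 FPKM in early wild type and 50.5, 49.1 and 54.3 FPKM in early mutants. In the late groups it was at 80.2, 43.9 and 43.7 FPKM in wild type and 64.4, 83.3 and 65.1 FPKM in mutants. The genotypes overlapped late for this gene, and its late log2 fold change was 0.21 ± 0.25 with a 95% interval of -0.30 to 0.72. The ratio of Col4a3 to Col4a4 in FPKM was 3.09, 2.03 and 2.26 in the late mutants and 1.63, 0.956 and 0.569 in the late wild types. It was 2.34, 1.32 and 0.891 in early wild type and 1.05, 1.09 and 1.19 in early mutants. The alpha 3 transcript thus exceeded the alpha 4 transcript in every late mutant by more than in any late wild type.

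Col4a1 and Col4a2 encode the chains of the trimer found in nearly all basement membranes. Col4a1 was at 45.1, 27.2 and 56.1 FPKM in early wild type, 45.9, 61.1 and 33 in early mutants, 46.3, 26.8 and 29 in late wild type and 37.7, 65.1 and 42.4 in late mutants. Col4a2 was at 31.7, 27.6 and 51.6 FPKM in early wild type, 41.6, 50.2 and 39.1 in early mutants, 34.8, 21.6 and 28.7 in late wild type and 30.2, 59.5 and 39.3 in late mutants. The groups overlapped for both genes, with late log2 fold changes of 0.35 ± 0.31 and 0.43 ± 0.27 (adjusted p = 0.467 and 0.304, edgeR). Their FPKM ratio kept between 0.842 and 1.42 in all 12 libraries, the narrowest span of the 3 collagen IV pairs.

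The starts of Col4a1 and Col4a2 in RefSeq lie on opposite strands, 21 bases apart. The window of 250 bases before to 50 after the start of Col4a2 is shown because it holds the start of Col4a1 as well, and that of Col4a4 because its pair had the widest span of ratios. Both are RefSeq promoters of build GRCm38.p6, at chr8:11312555-11312854 (plus strand) and chr1:82586800-82587099 (minus strand). Capitals mark the motifs searched on both strands, which were CCAAT, the motif known to be bound by the factor NF-Y, then GGGCGG, the motif of Sp1 and its relatives, then TATAAA, found upstream of the start of many inducible genes, then TGANTCA, the motif of the Jun and Fos proteins, and finally CACGTG, the motif of many helix-loop-helix proteins. No matches overlap in the windows shown.
Col4a2: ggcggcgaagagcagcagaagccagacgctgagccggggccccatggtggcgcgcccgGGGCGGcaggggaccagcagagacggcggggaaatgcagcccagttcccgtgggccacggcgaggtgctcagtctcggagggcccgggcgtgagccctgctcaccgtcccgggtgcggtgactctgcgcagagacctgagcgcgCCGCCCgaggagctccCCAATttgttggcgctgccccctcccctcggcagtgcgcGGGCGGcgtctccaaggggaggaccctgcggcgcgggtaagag
Col4a4: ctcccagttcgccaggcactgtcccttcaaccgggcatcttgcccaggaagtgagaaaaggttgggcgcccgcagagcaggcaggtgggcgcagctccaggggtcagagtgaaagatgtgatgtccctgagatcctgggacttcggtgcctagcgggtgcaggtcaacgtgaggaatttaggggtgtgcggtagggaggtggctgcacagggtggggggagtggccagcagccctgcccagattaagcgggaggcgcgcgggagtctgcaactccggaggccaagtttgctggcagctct
The Col4a2 window holds 1 CCAAT and 3 GGGCGG, counting both strands, and the Col4a4 window holds none of the 5 motifs. Of 32851 mouse promoters of the same length, 37.4% hold CCAAT, 35.7% GGGCGG, 13.6% TATAAA, 7.81% TGANTCA and 7.15% CACGTG. A match describes the letters in the window and is no evidence of binding. The gene models of Col4a1 and Col4a2, and those of Col4a3 and Col4a4, overlap in the reference annotation, and as no source used here says whether counting used the strand, the reads of partners may not be told apart there.

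Col4a5 and Col4a6, the X-linked pair, were the lowest of the 6. Col4a5 was at 10.4, 12.3 and 10.4 FPKM in early wild type, 8.98, 5.64 and 9.88 in early mutants, 16.4, 6.45 and 5.9 in late wild type and 6.91, 10.6 and 8.19 in late mutants. Col4a6 was at 19.8, 13.4 and 17.5 FPKM in early wild type, 9.07, 13.2 and 11.2 in early mutants, 18, 12.2 and 10.8 in late wild type and 8.33, 17 and 12 in late mutants. The groups of both genes overlapped late. Early log2 fold changes were -0.32 ± 0.32 and -0.54 ± 0.29, and late ones -0.28 ± 0.32 and -0.30 ± 0.29, so none passed the threshold. Of the 6 chains, 0 were called early and 0 late by edgeR, 0 and 1 had an unadjusted p below 0.05, and DESeq2 and limma-voom each called Col4a3 late.

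As a share of the summed FPKM of the 6 chains, Col4a3 took 35.4 ± 8.68% (SD, n = 3) in early wild type, 26.3 ± 3.83% in early mutants, 28.3 ± 11.4% in late wild type and 48.6 ± 7.97% in late mutants. The late mutant libraries held 41.8 to 57.4% and the late wild-type libraries 17.4 to 40.1%, without overlap. Col4a5 and Col4a6 had the smallest shares in every group, with Col4a6 at 7.01 ± 1.31% in late wild type and 3.47 ± 0.945% in late mutants. These shares are descriptions without a test, and a share of one chain falls where another is higher.

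**Figure D3:**
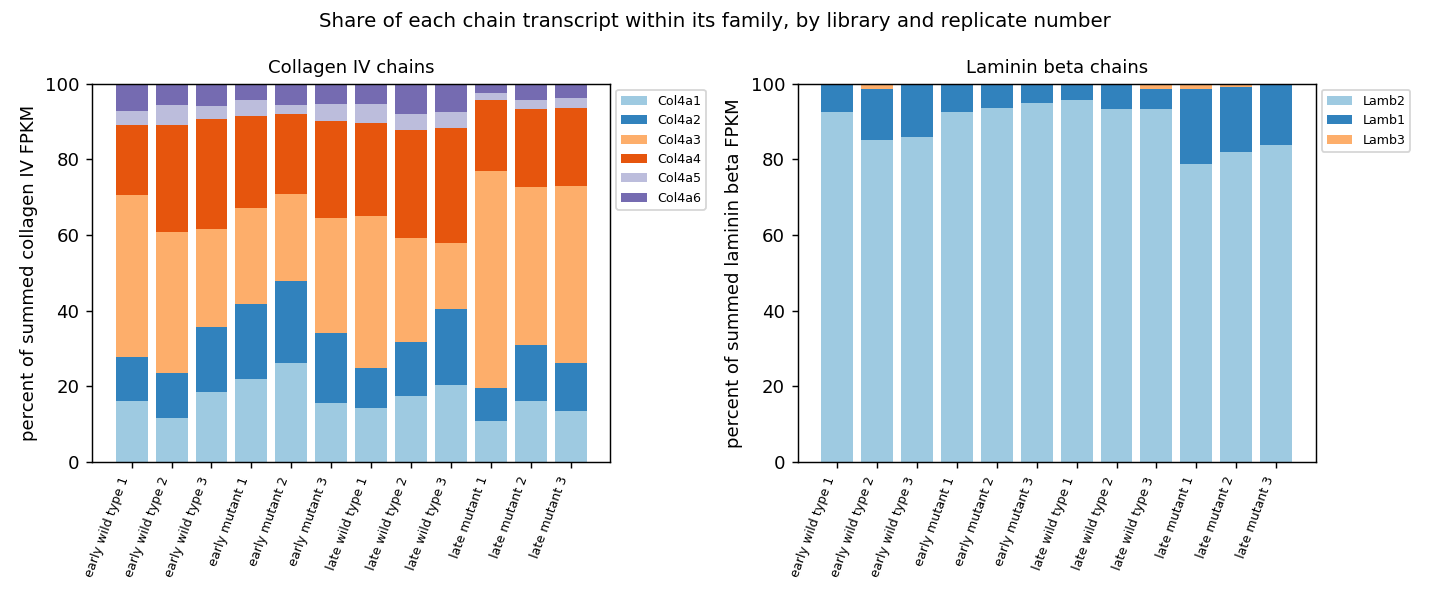
Share of each chain transcript in the summed FPKM of its family, one bar per library, for collagen IV on the left and laminin beta on the right. The Col4a3 segment is wider in each late mutant library than in any late wild-type library (48.6 ± 7.97% of collagen IV in late mutants), and the Lamb1 segment takes 17.7 ± 1.85% of the beta chains there against 5.44 ± 1.32% in late wild type.

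**Figure D4:**
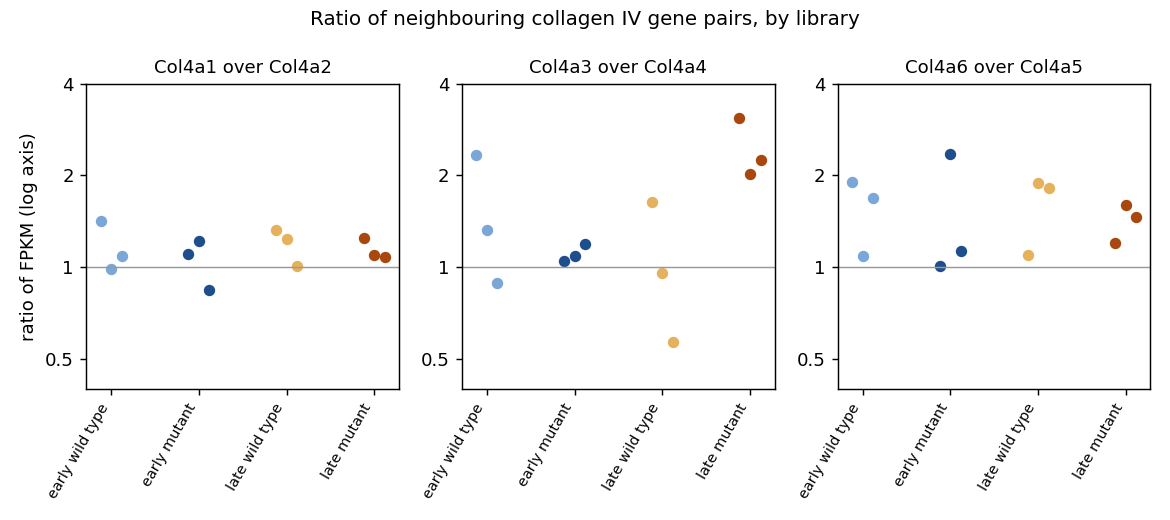
FPKM ratio of the partners of each head-to-head collagen IV pair, by library on a log axis, with a line at equal levels. The Col4a1 to Col4a2 ratio stays between 0.842 and 1.42, while the Col4a3 to Col4a4 ratio runs from 0.569 in a late wild-type library to 3.09 in a late mutant library.

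Laminin transcripts were dominated by Lama5, Lamb2 and Lamc1. Lama5, an alpha chain of most epithelial basement membranes, made up 67 ± 9.75% of the alpha chain FPKM in early wild type, 79 ± 0.672% in early mutants, 76.3 ± 9.42% in late wild type and 60.5 ± 4.53% in late mutants. Lamb2 made up 87.8 ± 4.02%, 93.7 ± 1.14%, 94.1 ± 1.46% and 81.5 ± 2.49% of the beta chains in the same groups. Both mean shares were higher in mutants early and lower in mutants late. Lamc1 made up at least 94.7% of the gamma chains in every library. Of these 3 leading chains, 0 were called at either stage by edgeR, DESeq2 or limma-voom and 0 had an unadjusted p below 0.05, while Lamc1 was called higher late without late wild-type replicate 1.

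Lamb1, the beta 1 chain, had fitted differences of opposite sign at the 2 stages. Early it was at 9.36, 7.65 and 15.3 CPM in wild type and 7.7, 6.01 and 3.9 CPM in mutants, and late at 4.56, 5.46 and 4.16 CPM in wild type and 13.9, 15.6 and 12.8 CPM in mutants. The early genotypes overlapped only in that early mutant replicate 1 lay just above early wild-type replicate 2, whereas all late mutants lay far above the late wild types. Lamb1 rose 2.98-fold in late mutants, a log2 fold change of 1.58 ± 0.34 (95% interval 0.86 to 2.29, edgeR adjusted p = 0.0135). The early value was -0.87 ± 0.33 (adjusted p = 0.456). Tested directly, the genotype effect differed between stages by 2.45 ± 0.48 on the log2 scale with an adjusted p of 0.094, which misses the threshold in edgeR, and DESeq2 gave an adjusted p of 0.00167. The late call was lost without late wild-type replicate 3 (adjusted p = 0.0576) and kept in the other alternatives.

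The ratio of Lamb1 to Lamb2 in FPKM was 0.251, 0.21 and 0.193 in late mutants and 0.0432, 0.0726 and 0.0583 in late wild types. Its early values were 0.0817, 0.157 and 0.165 in wild type and 0.0787, 0.0674 and 0.0531 in mutants. The late groups were thus apart by more than the spread within either, with Lamb2 itself at 80.6 ± 18 CPM in late wild type and 62.6 ± 8.95 CPM in late mutants. The promoter window of Lamb1 is shown because it is the laminin chain that passed the test (RefSeq, GRCm38.p6, chr12:31265043-31265342, plus strand, capitals as above).
Lamb1: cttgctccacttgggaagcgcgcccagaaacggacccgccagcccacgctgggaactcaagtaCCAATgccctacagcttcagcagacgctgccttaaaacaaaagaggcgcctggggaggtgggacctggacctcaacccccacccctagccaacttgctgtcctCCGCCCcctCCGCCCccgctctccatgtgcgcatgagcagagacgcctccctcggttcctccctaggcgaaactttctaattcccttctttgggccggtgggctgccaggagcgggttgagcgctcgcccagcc
It holds 1 CCAAT and 2 GGGCGG, counting both strands.

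Lama2, the alpha chain of muscle and nerve basement membranes, was low and, like Lamb1, had differences of opposite sign at the stages. It was at 6.66, 8.18 and 7.19 CPM in early wild type, 4.23, 4.56 and 3.96 in early mutants, 3.08, 5.06 and 4.43 in late wild type and 6.74, 10.5 and 9.29 in late mutants. The genotypes did not overlap at either stage, lower in mutants early and higher in mutants late. Neither value passed the threshold, at -0.79 ± 0.32 early (edgeR adjusted p = 0.508) and 1.08 ± 0.32 late (adjusted p = 0.0557), and the late value had an adjusted p of 0.036 without late wild-type replicate 1. The difference between the stages was 1.87 ± 0.46 (adjusted p = 0.122).

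Lama4, a chain of vessel walls among other sites, was at 1.99, 1.81 and 2.1 CPM in late mutants and 0.0984, 1.28 and 0.855 CPM in late wild types. Lama1, Lama3, Lamb3 and Lamc3 had means below 0.1 FPKM and between 0 and 52 counts per library. None of these 4 was called at either stage with all libraries, and Lama1 was called higher late without late wild-type replicate 1. Over all 5 alpha chains, 0 were called at either stage by edgeR, with 1 at an unadjusted p below 0.05 early and 1 late, and DESeq2 called Lama2 late while limma-voom called 0.

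The nidogens, which join laminin to collagen IV, overlapped between the genotypes at both stages. Nid1 was at 13.2 ± 4.0 CPM in early wild type, 13.2 ± 1.53 in early mutants, 12 ± 4.87 in late wild type and 17.3 ± 3.84 in late mutants. Its late wild-type libraries were at 17.6, 8.43 and 10.1 CPM. Without replicate 1 of that group Nid1 was called higher late, where 11% of all genes were. Nid2 was at 7.18 ± 2.03 CPM in early wild type, 6.43 ± 1.4 in early mutants, 8.58 ± 0.604 in late wild type and 6.63 ± 2.71 in late mutants. The Nid2 gene model overlaps Rtraf, which had far more reads, so its level is uncertain.

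Of the heparan sulfate proteoglycans, the perlecan and agrin genes had averaged differences of opposite sign, neither past the threshold. Hspg2 was at 38.3 ± 18 CPM in early wild type and 61.9 ± 16.4 CPM in early mutants, and at 36.1 ± 8.26 and 66.3 ± 20.2 CPM in the late groups. Its log2 fold change averaged over stages was 0.79 ± 0.25 (edgeR adjusted p = 0.0627). Agrn was at 16.3 ± 5.94 and 9.58 ± 1.46 CPM early and at 16.2 ± 5.07 and 9.72 ± 2.32 CPM late, with an averaged log2 fold change of -0.75 ± 0.24 (adjusted p = 0.0619). Each was called with the stages averaged in 5 of 19 alternatives, DESeq2's Wald test among them, Hspg2 higher and Agrn lower.

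Col18a1 rose in late mutants from a low level. It was at 0.131, 0.722 and 0.932 CPM in late wild types and 1.51, 7.32 and 5.12 CPM in late mutants, and at 0.299, 2.2 and 0.825 CPM and 1.5, 1.56 and 0.464 CPM in early wild types and mutants. The late mutants lay above all late wild types, and their own values differed widely. The late fold was 7.83 (log2 2.97 ± 0.82, 95% interval 1.26 to 4.68, edgeR adjusted p = 0.0403), and 6 of 19 alternatives did not make the call, including those without late mutant replicate 2 or 3 or without late wild-type replicate 2 or 3. Vascular endothelial markers summed to 13.1 to 18.1 CPM in late wild types and 21.4 to 39.2 CPM in late mutants, and their part in the result was not tested. Kdr, a large part of this sum, overlapped late (8.39 to 13.8 and 6.18 to 22.1 CPM). Of the 7 markers 0 were called late, while all 7 had log2 fold changes above 0. An unadjusted p below 0.05 was found for 2 of them, where 28.1% of all genes had one. Col15a1, the relative of Col18a1, had between 1 and 20 counts per library.

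Fras1, Frem1 and Frem2 form the complex that anchors embryonic epithelia beneath the lamina densa. Fras1, the most abundant of them, was at 39.2 ± 10.3 CPM in early wild type, 33.1 ± 5.6 in early mutants, 45.4 ± 6.47 in late wild type and 31.9 ± 12.2 in late mutants. Frem1 and Frem2 were below 1 FPKM in every library. Of the 3, 0 were called by edgeR, DESeq2 or limma-voom, with 0 at an unadjusted p below 0.05 early and 0 late. With the stages averaged, 1 was at an unadjusted p below 0.05, where 24.3% of all genes were. None of the 3 had a log2 fold change above 0 at either stage.

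Smoc2 had the lowest adjusted p of the set at both stages. It was at 2.58, 2.68 and 4.72 CPM in early wild types and 17.1, 20.4 and 15 CPM in early mutants. In the late stage it was at 3.93, 3.13 and 5.32 CPM in wild types and 14.7, 13.4 and 23.5 CPM in mutants. Every mutant library lay above the highest wild-type library of its stage. Smoc2 rose 5.22-fold in early mutants (log2 2.39 ± 0.35, 95% interval 1.65 to 3.12, edgeR adjusted p = 0.00114) and 4.17-fold in late mutants (log2 2.06 ± 0.35, 95% interval 1.34 to 2.78, adjusted p = 0.0032). Both calls, and the one averaged over stages (log2 2.22 ± 0.25, adjusted p = 1.43e-05), held in every alternative run. The test of a difference between the stages did not pass the threshold (adjusted p = 0.844).

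Smoc1, the paralog of Smoc2, was far more abundant and overlapped between genotypes. It was at 56.5, 47.8 and 71.4 FPKM in early wild type, 61.3, 64.3 and 65.4 in early mutants, 74.7, 38.3 and 40.5 in late wild type and 47.1, 77.1 and 52.3 in late mutants. Its log2 fold change was 0.22 ± 0.26 early (95% interval -0.33 to 0.77) and 0.06 ± 0.26 late (95% interval -0.49 to 0.61). The ratio of Smoc2 to Smoc1 in FPKM was 0.0134, 0.0226 and 0.0257 in early wild types and 0.0904, 0.11 and 0.0742 in early mutants, and 0.0201, 0.0247 and 0.0426 and 0.106, 0.0735 and 0.163 in the late groups.

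Npnt was at 139, 259 and 208 FPKM in early wild type, 255, 151 and 236 in early mutants, 313, 134 and 137 in late wild type and 201, 225 and 175 in late mutants. Its groups overlapped, with a log2 fold change of 0.24 ± 0.29 early and -0.07 ± 0.29 late. Late wild-type replicate 1 held its highest value. Egflam, which encodes the dystroglycan ligand pikachurin, was at 83.9 ± 18.8 CPM in early wild type, 99.3 ± 8.95 in early mutants, 86.2 ± 20.6 in late wild type and 75.7 ± 9.7 in late mutants. Ntn4, a laminin-binding netrin, was at 1.8, 3.12 and 2.32 CPM in early wild types and 5.93, 4.4 and 4.73 CPM in early mutants, which did not overlap, with a log2 fold change of 1.06 ± 0.43 (edgeR adjusted p = 0.499). Late, Ntn4 was at 3.1 ± 1.81 and 4.49 ± 1.01 CPM. Pxdn, the peroxidase that forms the sulfilimine crosslinks of collagen IV, was below 1 FPKM in every library, with between 4 and 130 counts.

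Among the receptors, transcripts of the integrin chains alpha 3 and beta 1, which pair as a laminin receptor, were higher in every mutant library than in the wild types of its stage. Itgb1 was at 157, 108 and 137 CPM in early wild types and 221, 239 and 224 CPM in early mutants. Late it was at 94.1, 121 and 92.3 CPM in wild types and 265, 181 and 221 CPM in mutants. The genotypes did not overlap at either stage. Itgb1 rose 2.17-fold in late mutants (log2 1.12 ± 0.25, 95% interval 0.59 to 1.64, edgeR adjusted p = 0.017). The early value, 0.77 ± 0.25, missed the threshold (adjusted p = 0.302), and averaged over stages it was 0.94 ± 0.18 (adjusted p = 0.00299). The averaged call held in all 19 alternatives, while the late call was lost in 4 of 20, among them without late mutant replicate 1 and without late wild-type replicate 3 (adjusted p = 0.087 and 0.0664).

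The promoter window of Itgb1 is given because the gene passed the test both late and with the stages averaged (RefSeq, GRCm38.p6, chr8:128685404-128685703, plus strand, capitals as above).
Itgb1: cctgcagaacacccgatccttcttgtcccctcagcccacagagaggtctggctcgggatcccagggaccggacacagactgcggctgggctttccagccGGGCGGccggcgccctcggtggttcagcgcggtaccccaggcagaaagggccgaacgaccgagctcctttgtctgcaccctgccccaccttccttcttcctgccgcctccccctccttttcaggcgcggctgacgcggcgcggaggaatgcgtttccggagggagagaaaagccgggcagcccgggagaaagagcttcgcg
It holds 1 GGGCGG and no other motif of the 5 searched.

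Itga3 was at 85.7, 90.9 and 70.9 CPM in early wild types and 145, 127 and 120.0 CPM in early mutants. Late it was at 88.2, 62.1 and 63.8 CPM in wild types and 122, 135 and 108 CPM in mutants. Mutants and wild types were apart at both stages. Itga3 rose with the stages averaged, by 0.72 ± 0.17 on the log2 scale (edgeR adjusted p = 0.0166), and the single stages gave 0.66 ± 0.24 (adjusted p = 0.42) and 0.77 ± 0.24 (adjusted p = 0.0652). Leaving out early mutant replicate 1 or early wild-type replicate 3 ended the averaged call (adjusted p = 0.0654 and 0.0518). The late value had an adjusted p of 0.00775 without late wild-type replicate 1.

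Itga6, the other laminin-binding alpha chain of the set, was at 8.62, 13.8 and 11.7 CPM in late wild types and 20.6, 22.5 and 23.2 CPM in late mutants. Early it was at 15.6 ± 5.37 CPM in wild type and 14.5 ± 1.08 CPM in mutants, with overlap. The late groups were apart, by 0.96 ± 0.29 (adjusted p = 0.0561, and 0.0406 without late wild-type replicate 1). Itgb4, its partner in hemidesmosomes, had 11 to 125 counts per library and overlaps the far more abundant Galk1, so its level is uncertain. Dag1, the dystroglycan gene, was at 53.5, 51.3 and 71.2 CPM in early wild types and 105, 90.7 and 82.3 CPM in early mutants, which did not overlap, and at 63.3 ± 23.4 and 68.2 ± 16.5 CPM in the late groups, which did.

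**Figure D5:**
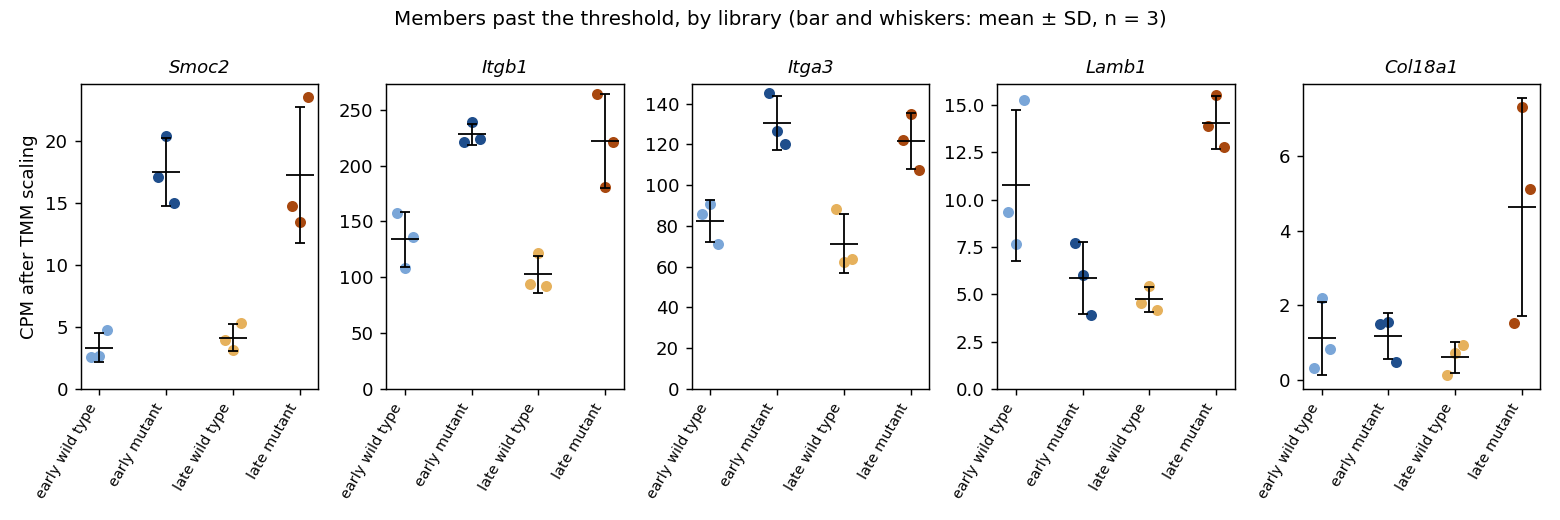
CPM after TMM scaling of the 5 genes past the threshold in a genotype comparison, one point per library, with the mean and SD (n = 3) of each group. Mutant and wild-type points are apart at both stages for Smoc2, Itgb1 and Itga3 and only at the late stage for Lamb1 and Col18a1.

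Whether the genotype effect itself differed between stages was tested for all 35 genes, and 0 passed the threshold in edgeR, as against 0.00557% of all genes. At an unadjusted p below 0.05 were 6 of the 35, where 11.2% of all genes were, namely Col4a3, Lama1, Lama2, Lamb1, Col18a1 and Itga6, each with the late effect above the early one. The largest in relation to its error was that of Lamb1, and that of Col4a3 was 1.99 ± 0.58 (adjusted p = 0.182, and 0.0137 without late wild-type replicate 1). DESeq2 called Col4a3, Lama2 and Lamb1, against 1.1% of all genes called in this direction, and limma-voom called Col4a3 and Lamb1, against 0.0612%. Without a filter on low counts the same 2 were called, against 0.461% of all genes. Without late wild-type replicate 1, Col4a3, Lama1 and Lamb1 were called (0.348% of all genes), and without that library and early wild-type replicate 2, Col4a3 and Lamb1 (0.125%).

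Between the stages within a genotype, where age and batch cannot be told apart, edgeR called 0 members and 0.0% of all genes. In wild type, Lama2 and Lamb1 were lower in all late than in all early libraries, where 2.12% of all genes were, and they were the 2 members with an unadjusted p below 0.05, where 4.03% of all genes were. There, 0 members were higher in all late libraries, where 2.62% of all genes were. Separation between the stages was judged in CPM, and in FPKM both Egflam and Smoc1 overlapped between the mutant stages. In mutants, 10 members were higher in all late libraries (Col4a3, Col4a4, Lama1, Lama2, Lama4, Lamb1, Lamc1, Lamc3, Itga6 and Itgb4) and 2 lower (Egflam and Smoc1), where 10.6% and 8.67% of all genes were. Of these contrasts DESeq2 called 0 members in either, and limma-voom called 0 in wild type and 5 in mutants (Col18a1, Col4a3, Lama1, Lama2 and Lamb1, with 1.06% of all genes). Without a filter on low counts, Col4a3 was called in mutants, against 0.0855% of all genes. In mutants, 6 members were at an unadjusted p below 0.05 in edgeR, where 6.53% of all genes were.

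Other genes of the same pathways were read from 5 lists. With all libraries and the filter on low counts, 0 of their genes were called early by edgeR, although 7 of 20 further matrix receptors, 1 of 20 dystroglycan partners and glycosylating enzymes, 2 of 20 cytoplasmic linkers, 4 of 20 further basement membrane proteins and 7 of 16 genes of collagen IV folding, crosslinking and proteolysis had an unadjusted p below 0.05, where 8.77% of all genes had. Early, DESeq2 called 1 receptor and 2 basement membrane proteins higher and 1 processing gene lower. There limma-voom called 1 processing gene higher, where 0.707% of all genes were. Without a filter on low counts, edgeR called 2 receptors and 3 basement membrane proteins higher and 1 processing gene lower early, and with only the 6 early libraries 2 basement membrane proteins higher. For these fits and DESeq2 early, the share of all genes called is not given here, so the counts are description only. In the same order, 1, 0, 1, 2 and 2 were called higher late and 0, 1, 0, 1 and 1 lower. Over all genes these shares were 2.77% and 2.71%. With the stages averaged, 4, 1, 1, 5 and 5 were called higher and 0, 1, 0, 1 and 1 lower, where 4.04% and 2.81% of all genes were. Without late wild-type replicate 1 the late counts were 9, 5, 2, 5 and 8 higher, where 11% of all genes were, and 0, 3, 1, 1 and 1 lower. The share of all genes called lower in that fit is not given here, so the lower counts are description only.

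Of the further receptors, Itgb5, a vitronectin-binding integrin chain, rose by 0.89 ± 0.20 with the stages averaged (edgeR adjusted p = 0.00995), Sdc1, a cell surface proteoglycan, by 0.91 ± 0.20 (adjusted p = 0.0103) and Itga1, a collagen-binding chain, by 0.78 ± 0.20 (adjusted p = 0.0229). The median log2 fold change of all 20 further receptors tested was 0.33 early and 0.68 late. Among the dystroglycan partners, Dtna, a dystrobrevin, fell by 0.72 with the stages averaged and Sntb2, a syntrophin, fell by 1.23 in late mutants (edgeR adjusted p = 0.0368 and 0.0208). Zyx, the focal adhesion protein zyxin, was the only linker called, at 1.29 ± 0.30 late (adjusted p = 0.0205). The call of Dtna was lost in 13 of 19 alternatives, that of Itga1 in 7, and the late call of Sntb2 in 5 of 20 and that of Zyx in 4 of 20 (without late mutant replicate 1 or 3, or late wild-type replicate 2 or 3), while those of Itgb5 and Sdc1 held in all 19.

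Of the further basement membrane proteins, Efemp1, a fibulin, rose by 2.41 ± 0.45 with the stages averaged (edgeR adjusted p = 0.00337), Sparc, a collagen-binding matrix protein, by 0.92 ± 0.18 (adjusted p = 0.00438) and Tgfbi, an integrin-binding corneal matrix protein, by 1.62 ± 0.37 (adjusted p = 0.0126). Hmcn1, the hemicentin named here after its value was seen as the list's one gene called lower, fell by 1.59 in late mutants. Among the processing genes, Adamts1, a secreted protease, fell by 1.63 (adjusted p = 9.78e-04), whereas Mmp14, a membrane-bound matrix metalloproteinase, rose by 0.99 ± 0.19 (adjusted p = 0.00316) and Colgalt1, which glycosylates collagen lysines, by 0.77 ± 0.18 (adjusted p = 0.0152). The calls with the stages averaged of Efemp1, Sparc, Tgfbi, Adamts1 and Mmp14 held in all 19 alternatives, that of Colgalt1 was lost in 1, and the late call of Hmcn1 was lost in 5 of 20. The medians were 0.41 early and 0.83 late for the further basement membrane proteins and 0.55 and 0.62 for the processing genes.

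Markers of other cells that could lie in the dissected tissue moved with genotype as well. Summed over 6 genes, macrophage markers were at 21.9 to 52.2 CPM in early wild types and 204 to 461 in early mutants, and at 32.6 to 52.4 and 320.0 to 379 CPM late. The 3 trabecular meshwork markers were at 73.6 to 111 and 223 to 601 CPM early and 56.5 to 116 and 316 to 413 CPM late. Of these, edgeR called 4 of 6 macrophage markers higher early and 6 of 6 late, and 2 of 3 meshwork markers (Mgp and Chil1) at both stages. These sums were apart at both stages, as was that of 6 photoreceptor markers early (28.1 to 65.4 and 151 to 299.9 CPM), which overlapped late (64.1 to 92.9 and 92.5 to 262 CPM). Late only, 7 lens markers were at 52.8 to 110.0 CPM in wild type and 231 to 335 in mutants, with 3 called higher, while early the lens sums overlapped (109 to 522 and 82.4 to 181 CPM). The 6 pericyte and smooth muscle markers summed to 202 to 235 CPM in late wild types and 277 to 315 in late mutants, but this sum was mostly Acta2 (123 to 168 and 216 to 270.2 CPM). Of that list 0 were called higher late and 1 lower (Myh11, 20 to 25.1 and 6.84 to 13.7 CPM), with a median log2 fold change of -0.04. Early the pericyte sums were 243 to 334 CPM in wild types and 215 to 245 CPM in mutants. The early sums of the vascular markers overlapped at 12.6 to 20.8 and 12.3 to 20.7 CPM. Of the 6 keratocyte markers, 2 were called higher early (Kera and Lum) and 3 late (Kera, Lum and Angptl7), with 1 called lower late (Ptgds), and the median log2 fold changes were 1.47 and 1.40. Kera, a keratocyte proteoglycan gene, was at 6.86 to 18 CPM in early wild types and 45.6 to 101.4 in early mutants, and at 11.2 to 17.5 and 49.1 to 89.9 CPM late. The keratocyte sums, made up mostly of Dcn, overlapped at both stages (18379 to 28204 and 22127 to 25195 CPM early, 20478 to 25829.9 and 20792 to 31954 late). Sums of the corneal epithelium overlapped as well (20 to 94, 30.6 to 353, 15.3 to 333 and 54.3 to 164 CPM), and pigment cell sums were apart early (29.5 to 42.4 and 90.9 to 229 CPM) and overlapped late (10.4 to 122 and 81.2 to 118 CPM). No marker gene of any list was at 0 in all 3 libraries of a group. Smoc2, Itgb1 and Itga3 were higher in the groups with higher macrophage and meshwork sums and higher Kera and Lum, and Lamb1 and Col18a1 in late mutants, where these and the lens and vascular sums were higher than in late wild types, and the part of these cells in the results was not tested. In such bulk libraries, fewer cells of a type and less RNA per cell cannot be told apart.

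The authors' deposited tables of the same 2 comparisons listed all 36 genes. At a q below 0.05 in the authors' deposited table, 2 members were higher early (Smoc2 and Itgb1), where 1.87% of 17745 listed genes passed in either direction, and 5 late (Smoc2, Lamb1, Itgb1, Col18a1 and Col4a3), where 7.59% of 16663 did. None of the 36 was lower at that threshold in the authors' deposited table. Itgb1 early, with a q of 0.0414 and a log2 fold change of 0.72, and Col4a3 late, with a q of 0.0422 and a log2 fold change of 1.28, are the calls in the authors' deposited table that the fit over all 12 libraries did not make.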

How the data were processed

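Polyadenylated RNA of mouse corneal endothelium was sequenced in 12 libraries with a strand-keeping kit, per the labels' protocols. DESeq2, HTSeq, HISAT2 and fastp are the tools in the submitters' processing notes, with build GRCm39, and no source used here gives their versions or the strand setting. The authors deposited read counts per gene as whole numbers, FPKM values, and comparison tables holding a fold change as a ratio, its log2, a p-value and a q-value, per the file headers. Groups come from the labels.

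Counts were fitted with edgeR 4.0.16 in R 4.3.3 (TMM, filterByExpr, robust quasi-likelihood F test over 12 libraries in 4 groups, 8 residual degrees of freedom). The filter left 17965 of 32761 genes, and p-values were adjusted over these by Benjamini-Hochberg with a threshold of 0.05. Levels between genes, shares and ratios use FPKM without a test. Alternatives were DESeq2 1.42.0, limma 3.58.1 (voom), other filters and scaling, smaller fits, a replicate block and leaving out libraries.

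The genes of the set and all lists were chosen with earlier results of these data known. Values in every library are given for genes past the threshold in a genotype contrast, the 6 most abundant genes and the collagen IV pairs, and at most 3 genes per list, those with the smallest p with the stages averaged, are named, except 1 gene that is not reported here. Lama2, Lama4, Itga6, Dag1, Ntn4, Sntb2 and Hmcn1 were described beyond this rule after their values were seen. Promoter windows are from RefSeq (GRCm38.p6), matched by symbol for 24 of the 36 genes.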

Additional observations from a re-analysis of the deposited data

How the results depend on the processing

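The tally that follows covers 39 log2 fold changes of members, picked mainly for an unadjusted p below 0.05 in the main fit. The early and late values of Npnt, Smoc1 and the collagen IV chains other than Col4a3 were added. Some picked values that the text does not print were left out, so the tally does not describe all tested members. Recomputed under the alternatives, the 39 gave 771 values. Of these, 699 kept direction and side of the threshold, 46 passed it newly, 14 no longer passed it and 12 changed sign. Those that changed sign passed the threshold neither before nor after. Col4a1 early was -0.073 with early wild-type replicate 2 left out, and -0.075 with late wild-type replicate 1 left out too, with 0.42 as the highest value when 1 library was left out. For Col4a5 late they were 0.043 by limma-voom, 0.33 without late wild-type replicate 1 and 0.32 without both, with -0.50 as the lowest. For Npnt late they were 0.11 by limma-voom and 0.43 without both, and 0.01, 0.08 and 0.44 without late mutant replicates 2 and 3 and late wild-type replicate 1, with -0.23 as the lowest. For Smoc1 late they were -0.045 and -0.047 without late wild-type replicates 2 and 3, with 0.43 as the highest. The cause was not tested.

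The number of members called early was 1, and 2 by limma-voom. Late it was 4, with 8 by DESeq2 and 12 without both late wild-type replicate 1 and early wild-type replicate 2. With the stages averaged it was 3, with 5 without a filter on low counts, 6 by DESeq2 and 8 without both. For the difference of the genotype effect between stages it was 0, with 2 without a filter, 3 by DESeq2, 2 by limma-voom and 2 without both. For late against early in mutants it was 0, with 1 without a filter and 5 by limma-voom. Leaving out each library in turn gave 1 to 1 early, 1 to 12 late, 2 to 6 averaged, 0 to 3 for the difference and 0 to 0 between stages in either genotype. The late 12 came without late wild-type replicate 1 and the late 1 without replicate 3 of that group, where 3909 and 364 genes of all tested were called against 983.

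Same-numbered mutant and wild-type libraries showed little common deviation (correlations of -0.0878 to 0.0813 over genes), and they were fitted as unpaired. With 3 libraries in each group, this check cannot decide whether they shared an origin. With a replicate block the counts were 1 early, 4 late, 2 averaged and 0 for the difference, and Itgb1 late and Itga3 averaged missed the threshold (edgeR adjusted p = 0.0609 and 0.0526). The share of all genes called with the block is not given here, so these counts are description only. The block was not run between stages, and fits of 6 libraries could not give the averaged effect or the difference. Col18a1 gave no value under the stricter filter. As TMM-scaled counts per kilobase, the early mutant levels of Col4a4 and Smoc1 were 54.1 and 67.1, beyond 1 SD of their FPKM means. The 3 libraries in each group and the few counts of the 12 genes with means below 1 FPKM limit what could be detected.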
